A study of Mus musculus with 2 samples.

Results

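The 10 genes *Gm15832*, *Cd300lf*, *Hcar2*, *Sh2d3c*, *Dgkz*, *Dhx40*, *Cln3*, *Kctd5*, *Ifitm10* and *Gm15247* were examined in single-cell RNA-seq libraries from mouse colorectal polyps, out of 32285 genes in the files. They were chosen by their measured level: earlier results of the same libraries had shown them higher in neutrophils of *Clec7a*-/- mice, and no threshold came with the list. Their higher level in *Clec7a*-/- neutrophils is therefore the selection itself and is given as a description. All 10 had UMIs in both libraries. *Clec7a* encodes Dectin-1, a receptor for beta-glucans on myeloid cells, and *Clec7a* itself was not analysed here, so the deletion could not be checked in the counts.

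Mice of the C57BL6/J strain, 26 weeks old by the labels, had received azoxymethane (AOM), a carcinogen, and 3 cycles of 1% dextran sodium sulfate (DSS), which injures the colon lining. Cells were taken at week 16 of the protocol, and CD11b+ and CD11c+ cells were sorted from the polyps. Both groups shared this treatment and sort. Cells of 5 wild-type (WT) mice made up 1 library and cells of 4 *Clec7a*-/- mice the other, so no value for a single mouse exists. The labels name no cell type to which the deletion was limited.

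With 1 library per genotype no test could be run, and no p-value or standard error is given. A level is given in CPM, the UMIs (unique molecular identifiers, 1 per captured transcript copy) of a gene scaled to 1000000 UMIs of the same cells. Intervals are 95% intervals, exact Poisson for levels, exact conditional binomial for ratios and Clopper-Pearson for shares of cells, and they cover counting alone. Differences between mice and between library preparations lie outside these intervals. Counts of genes beyond counting error have no share over all genes beside them, and genes with many UMIs pass more readily. The WT library held 15869215 UMIs in 3467 barcodes and the *Clec7a*-/- library 11808230 UMIs in 3080 barcodes. After the study's filter on cells 2696 WT and 1999 *Clec7a*-/- cells remained. Of the barcodes, 17 occurred in both libraries, 6 of them among the cells kept. In all, 15 clusters were obtained without the 10 genes among the clustering features, and they were named from marker genes.

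Neutrophils are short-lived granulocytes that leave the bone marrow with granules already filled, and their granule transcripts decline as they age in blood and tissue. Several of the 10 genes act where such cells sense or process their surroundings. *Cd300lf* encodes an inhibitory receptor of myeloid cells that binds lipids such as those of dying cells, and *Hcar2* encodes the Gi-coupled receptor for niacin, butyrate and beta-hydroxybutyrate. *Sh2d3c* encodes an adaptor that binds CAS-family scaffolds, and *Dgkz* encodes a kinase that turns diacylglycerol into phosphatidic acid and so ends its signal. *Dhx40* belongs to the DEAH-box RNA helicases, *Cln3* encodes a membrane protein of lysosomes that is mutated in Batten disease, and *Kctd5* encodes a substrate adaptor of Cullin-3 ubiquitin ligases. *Ifitm10* is a member of the interferon-induced transmembrane family. *Gm15832* and *Gm15247* are annotated as non-coding transcripts.

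In GRCm38 with GENCODE M21 all but *Sh2d3c* lie on the minus strand. *Gm15832* (chr1:39547570-39552002) overlaps *Rnf149* on the same strand, and *Gm15247* (chrX:169985801-169986939) is antisense to *Mid1*. *Cd300lf* (chr11:115116214-115133992) overlaps *Rab37* on the opposite strand, and *Cln3* (chr7:126571207-126585817) overlaps *Apobr* on the opposite strand. *Sh2d3c* spans chr2:32721055-32755512 and *Dgkz* chr2:91932824-91975864. *Dhx40* spans chr11:86768846-86807746, *Hcar2* chr5:123863570-123865499, *Kctd5* chr17:24047734-24073485 and *Ifitm10* chr7:142325837-142373753. The strand setting of the counting is not given in the sources used here, so reads of overlapping genes may have been assigned to either partner.

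RefSeq sequences before annotated starts were at hand for 7 of the 10 genes, in 11 windows of 250 bases (GRCm38.p6). *Gm15832*, *Hcar2* and *Gm15247* had none. Stretches before 3 genes are shown, all 5′ to 3′ on the minus strand and cut where an annotated exon begins. A window with a motif was taken where the gene had one. The other window of *Dgkz* (chr2:91963564-91963813) held none of the motifs searched. Capitals mark the E-box CACGTG in *Dhx40* and the PU.1 motif GAGGAAGT in *Dgkz*, and *Cd300lf* has no capitals since none of the motifs searched was in it. The coordinates are chr11:115133993-115134242 for *Cd300lf*, chr11:86807747-86807910 for *Dhx40* and chr2:91950428-91950598 for *Dgkz*, the last before an internal start of that gene.
Cd300lf: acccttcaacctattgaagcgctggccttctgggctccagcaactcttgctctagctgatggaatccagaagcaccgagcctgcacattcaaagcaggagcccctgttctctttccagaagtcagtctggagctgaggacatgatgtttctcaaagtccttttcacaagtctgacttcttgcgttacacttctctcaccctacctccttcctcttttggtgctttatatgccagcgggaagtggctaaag
Dhx40: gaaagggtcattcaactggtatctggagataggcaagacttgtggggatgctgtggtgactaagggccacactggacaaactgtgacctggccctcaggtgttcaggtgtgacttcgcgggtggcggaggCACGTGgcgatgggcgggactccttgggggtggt
Dgkz: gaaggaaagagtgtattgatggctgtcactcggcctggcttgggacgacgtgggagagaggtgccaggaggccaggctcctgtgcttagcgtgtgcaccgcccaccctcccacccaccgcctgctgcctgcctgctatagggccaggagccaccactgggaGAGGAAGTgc

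On both strands CACGTG was present in windows of *Dhx40* and *Cln3*, and in 6.02% of the 32851 windows of all genes. GAGGAAGT was present in a window of *Dgkz* alone among the 7 genes and in 2.44% of all windows. The C/EBP motif TTGCNNAA was in a window of *Cln3* and in 9.56% of all windows, and the AP-1 motif TGANTCA was in 2 overlapping windows of *Ifitm10* and in 6.75% of all windows. The NF-kB motif was in none of the 11 windows and in 0.14% of all windows. No motif was found in windows of *Sh2d3c* or *Kctd5*. These matches describe letters in a window and were not compared with the ratios of the genes.

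The neutrophil-like class was made of 2 clusters. Cluster 1 (497 WT and 89 *Clec7a*-/- cells) carried granule and chemokine receptor genes, with *Ngp*, *Retnlg*, *Lcn2*, *Cxcr2*, *S100a8* and *S100a9* among its 10 leading genes. Cluster 3 (179 WT and 315 *Clec7a*-/- cells) was led by *Mdk*, *Mirt1*, *Dhx40*, *H2-Q10* and *Dgkz*. The G-CSF receptor gene *Csf3r* was its only neutrophil marker among the 10 leading genes. Its 50 leading genes held 3 neutrophil markers, the smallest number that allowed a name, and 7 of the 10 genes examined. Its median of 977 UMIs per cell was 0.339 of the library median, against 2648 UMIs in cluster 1. Cluster 1 held 73.5% (interval 70.0 to 76.8) of the WT cells of the class and cluster 3 held 78.0% (73.6 to 81.9) of the *Clec7a*-/- cells. The 10 genes had been called markers of transitional neutrophils. In the WT library 6 of the 10 were lower in cluster 3 than in cluster 1 beyond counting error, 2 were higher (*Kctd5* and *Gm15247*) and 2 did not differ detectably. In the *Clec7a*-/- library 1 was lower (*Hcar2*), 2 were higher (*Dgkz* and *Dhx40*) and 7 did not differ detectably. Most of the genes were thus not higher in the granule-poor cluster of the WT library. No share over all genes was set beside these counts, so they do not set the 10 genes apart from others. The 19 neutrophil markers, which include granule genes, were lower in WT cells of cluster 3 as well. They summed to 63579 CPM in cluster 1 and 27894 in cluster 3. The 14 genes of activated or aged tissue neutrophils went the other way, with sums of 18370 and 22293 CPM in WT cells. *Csf3r* stood at 1656 and 962 CPM in WT cells of clusters 1 and 3, and at 2089 and 2392 in *Clec7a*-/- cells. Whether cluster 3 holds transitional neutrophils was not tested, so the name is not used, and the set is called the 10 genes here.

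In the neutrophil-like class the summed level of the 10 genes was 11767 CPM in WT and 18888 in *Clec7a*-/- cells, 1.61-fold higher (log2 ratio 0.68, interval 0.65 to 0.72). Of the 10, 6 were at least 2-fold higher and all 10 were higher beyond counting error, and these counts follow from the choice of the genes on this contrast. Of 4951 genes with at least 20 UMIs in the class, 5.72% were at least 2-fold higher. The median log2 ratio was 1.16 over the 10 genes and 0.02 over those 4951. *Hcar2*, *Cd300lf*, *Sh2d3c* and *Gm15832* had ratios up to 1.52 and the other genes had ratios from 2.03.

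**Figure D1:**
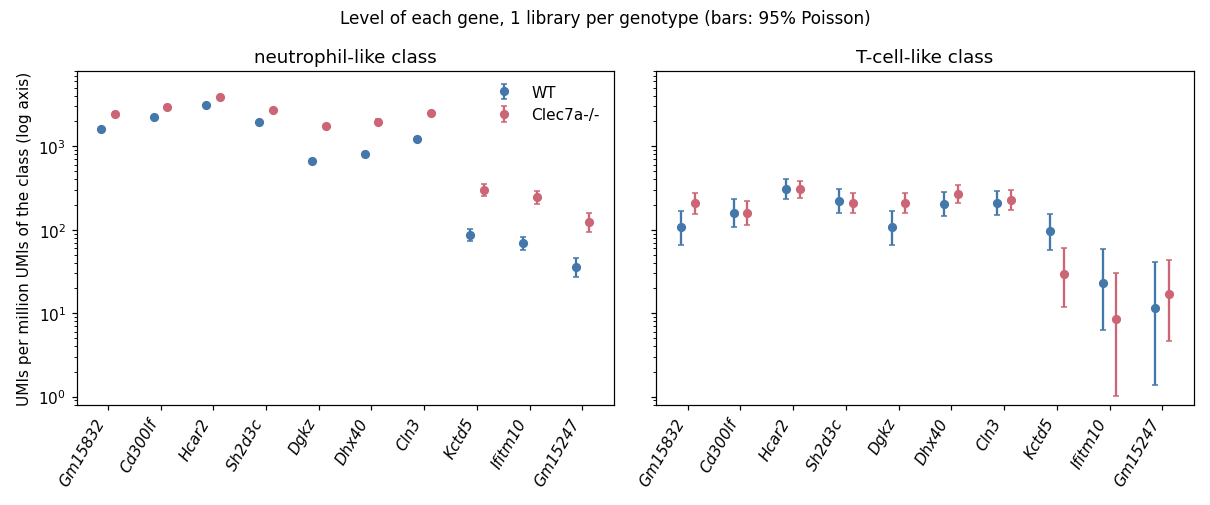
CPM within the class (log axis) for each of the 10 genes in the neutrophil-like class (left) and the T-cell-like class (right), WT in blue and *Clec7a*-/- in red, 1 library each, with 95% Poisson bars. In neutrophil-like cells every red point lies above its blue one, from *Hcar2* (3090 and 3907) down to *Gm15247* (35.5 and 123), and the T-cell-like points lie at 308 or lower.

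Among the receptors and adaptor genes, *Hcar2* had the highest level of the 10 in both libraries, 3090 CPM in WT and 3907 in *Clec7a*-/- neutrophil-like cells, a ratio of 1.26. *Cd300lf* followed with 2255 and 2938 CPM, a ratio of 1.30. *Sh2d3c* stood at 1939 and 2748 CPM, a ratio of 1.42. The non-coding *Gm15832* stood at 1599 and 2432 CPM, a ratio of 1.52. These 4 genes made up most of the members' UMIs in both libraries, and UMIs counted at the 3′ end of transcripts do not scale with gene length, so their order is one of captured transcript copies.

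The enzyme and lysosomal genes had lower levels in the WT library and higher ratios. In the *Clec7a*-/- library *Cln3* was not below *Gm15832*, which stood at 2432 CPM. *Cln3* was at 1226 CPM in WT and 2484 in *Clec7a*-/- cells, a ratio of 2.03. *Dhx40* was at 805 and 1970 CPM, a ratio of 2.45, and *Dgkz* at 661 and 1745, a ratio of 2.64. In WT cells the order of these 3 was *Cln3*, *Dhx40*, *Dgkz*, each gap larger than the counting intervals of the neighbours.

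The 3 genes of lowest level had the highest ratios. *Kctd5* had 153 UMIs in the WT class (87.5 CPM) and 143 in the *Clec7a*-/- class (298 CPM), a ratio of 3.40. *Ifitm10* had 121 UMIs (69.2 CPM) and 117 UMIs (243 CPM), a ratio of 3.52. *Gm15247* had 62 UMIs (35.5 CPM) and 59 UMIs (123 CPM), a ratio of 3.46 with a log2 interval of 1.25 to 2.33. The intervals of these 3 ratios overlapped each other, so their order is not resolved.

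The mix of the 10 genes also differed. *Hcar2* made up 26.3% (interval 25.7 to 26.9) of their UMIs in WT and 20.7% (19.9 to 21.5) in *Clec7a*-/- neutrophil-like cells. *Dgkz* made up 5.62% (5.31 to 5.94) and 9.24% (8.65 to 9.86). *Cd300lf* made up 19.2% and 15.6%, and *Gm15832* 13.6% (13.1 to 14.1) and 12.9% (12.2 to 13.6), the last pair with overlapping intervals. The difference between the libraries was thus unequal across the genes, whatever the scale.

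Within cluster 1 alone, where granule genes summed to 12437 CPM in WT and 11329 in *Clec7a*-/- cells, all 10 genes were higher in *Clec7a*-/- cells beyond counting error. Of these, 5 were at least 2-fold higher, against 7.95% of 4013 genes. *Dgkz* was 2.16-fold, *Dhx40* 2.01-fold and *Kctd5* 3.15-fold higher, while *Cd300lf* was 1.21-fold and *Sh2d3c* 1.26-fold higher. The summed level was 12229 CPM in WT and 18163 in *Clec7a*-/- cells. Clusters 1 and 3 make up the neutrophil-like class, on which the genes were chosen, so these counts follow from that choice too. The higher levels in cluster 1 rest on 89 *Clec7a*-/- cells. *Csf3r*, the G-CSF receptor gene, was higher there too, at 1656 and 2089 CPM (log2 ratio 0.34), while *S100a9* was lower, at 19395 and 18063. Median depths in this cluster were 2799 UMIs in WT and 1706 in *Clec7a*-/- cells.

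Within cluster 3 the ratios were larger for most genes, and 7 were at least 2-fold higher, against 9.22% of 2992 genes. This count follows from the choice of the genes, as in cluster 1. *Cd300lf* stood at 1320 CPM in WT and 2950 in *Clec7a*-/- cells (log2 ratio 1.16), and *Sh2d3c* at 1179 and 2829 (1.26). *Ifitm10* stood at 34.1 and 268 CPM (2.90, interval 1.94 to 4.24), on 8 WT UMIs. *Gm15247* stood at 63.9 and 119 CPM, and its interval of -0.00 to 1.86 reached 0. The summed level was 8786 CPM in WT and 19252 in *Clec7a*-/- cells. Some neutrophil genes differed in the same direction in this cluster: *Csf3r* stood at 962 and 2392 CPM and *S100a9* at 4491 and 9950. The 11 mature blood neutrophil genes summed to 20185 and 33892 CPM, and the 14 granule genes to 3452 and 3893 (log2 ratio 0.17). The 14 genes of activated or aged tissue neutrophils went the other way, at 22293 and 18961 CPM (-0.23). Eosinophil markers summed to 162 CPM in WT and 31.2 in *Clec7a*-/- cells of cluster 3, and B or plasma cell markers to 362 and 103. The part of these cells in the cluster 3 ratios was not tested.

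Cluster 7 (269 WT and 58 *Clec7a*-/- cells) had 8 neutrophil markers among its 50 leading genes. Among its 10 leading genes 1 was a neutrophil marker and 1 a monocyte marker, *Chil3*, which is also among the granule genes used below. It was put in neither class because of this tie, a choice made after the clusters were seen. Its neutrophil markers summed to 27734 CPM in WT and 18724 in *Clec7a*-/- cells, and its monocyte markers to 9999 and 10908. It held 9.98% of the WT and 2.90% of the *Clec7a*-/- cells, and with it in the neutrophil-like class the summed log2 ratio there was 0.78. In cluster 7 itself, 7 of the 10 genes were higher in *Clec7a*-/- cells beyond counting error. Of the 10, 4 were at least 2-fold higher (*Dgkz*, *Dhx40*, *Ifitm10* and *Gm15247*), against 5.1% of 5036 genes. Cluster 7 also carries neutrophil transcripts, so these counts are not independent of the choice of the genes. *Cd300lf* stood at 1075 and 1117 CPM and *Hcar2* at 1612 and 1783, both with intervals that held 0. *Dgkz* and *Dhx40* had higher ratios than *Cd300lf* and *Hcar2* in clusters 1, 3 and 7, without overlap of the intervals except for *Dhx40* and *Cd300lf* in cluster 3.

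**Figure D2:**
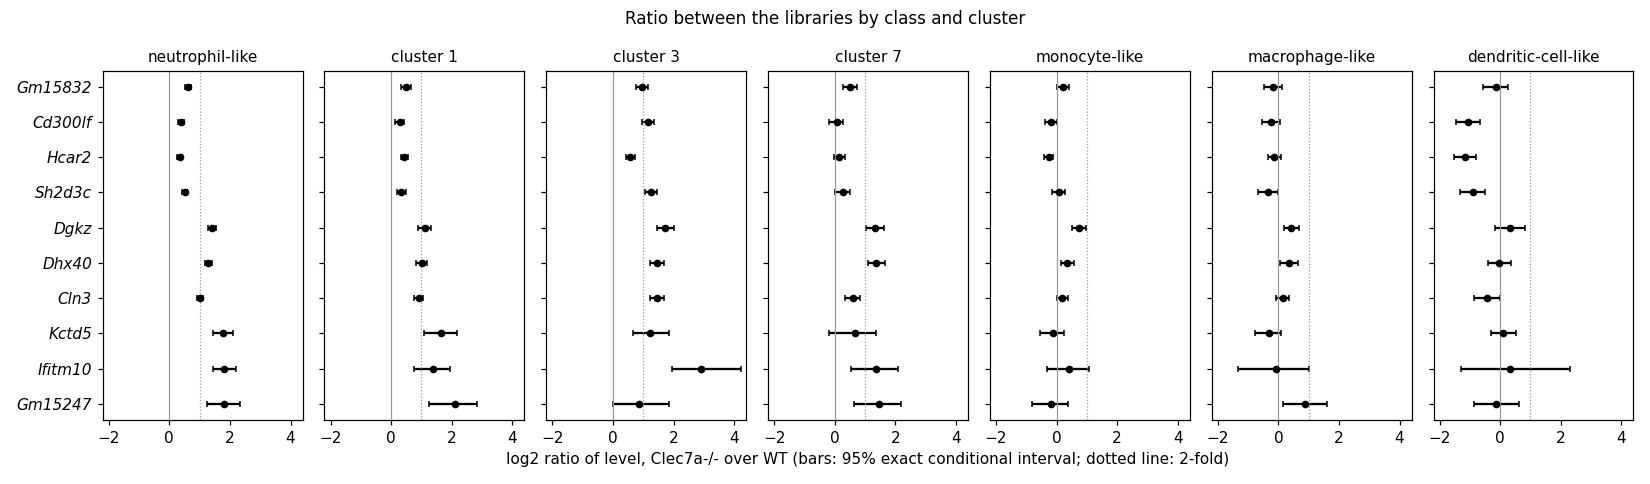
Log2 ratio of the level in the *Clec7a*-/- library over the WT library for each of the 10 genes (rows) in the neutrophil-like class, its clusters 1 and 3, the mixed cluster 7 and 3 other classes (panels), with 95% exact conditional intervals and a dotted line at 2-fold. Points lie right of 0 in the first 4 panels, with *Dgkz* at 1.40 and *Hcar2* at 0.34 in the first, and on both sides of 0 in the other classes, from -1.16 for *Hcar2* in dendritic-cell-like cells to 0.89 for *Gm15247* in macrophage-like cells.

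In the other classes, which the choice of the genes did not use, levels were far lower. In monocyte-like cells (738 WT and 502 *Clec7a*-/- cells) the summed level was 1621 CPM in WT and 1698 in *Clec7a*-/- cells, a log2 ratio of 0.07 with an interval of -0.00 to 0.14. None of the 10 was 2-fold higher there, against 2.39% of 8145 genes, while 4 were higher and 1 was lower beyond counting error. *Dgkz* was higher, at 109 and 182 CPM (log2 ratio 0.74, interval 0.50 to 0.97), and *Dhx40* at 158 and 202 (0.36, 0.15 to 0.57). *Hcar2* was lower, at 456 and 382 CPM (-0.26, -0.40 to -0.12).

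In macrophage-like cells (533 and 297) the summed level was 670 CPM in WT and 680 in *Clec7a*-/- cells, a log2 ratio of 0.02 with an interval of -0.07 to 0.12. None was 2-fold higher, against 1.41% of 9141 genes. *Dgkz* stood at 83.4 and 112 CPM (0.43, 0.18 to 0.67) and *Gm15247* at 8.65 and 16.0 (0.89, 0.16 to 1.61), on 37 and 32 UMIs. *Dgkz* and *Dhx40* (56.8 and 72.5 CPM here) were higher beyond counting error in both the monocyte-like and the macrophage-like class.

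In dendritic-cell-like cells (356 and 558) the summed level was lower in the *Clec7a*-/- library, 470 CPM in WT and 344 in *Clec7a*-/- cells, a log2 ratio of -0.45 with an interval of -0.58 to -0.32. Of the 9 genes with at least 20 UMIs there (all but *Ifitm10*) none was 2-fold higher, against 3.02% of 8418 genes. *Hcar2* (41.6 CPM in the *Clec7a*-/- library, log2 ratio -1.16) and *Cd300lf* (72.2 and 34.8 CPM) were at least 2-fold lower, against 1.81% of the same genes. *Sh2d3c* stood at 62.4 and 33.4 CPM (-0.90). In both libraries the levels of *Hcar2*, *Cd300lf* and *Sh2d3c* here lay below those of T-cell-like cells, which are given next as the measure of free RNA.

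T-cell-like cells, which should lack *Cd300lf* and *Hcar2*, served as the measure of free RNA. They held 160 CPM of *Cd300lf* in both libraries, and 308 CPM of *Hcar2* in WT and 303 in *Clec7a*-/- cells. Of the 10 genes, 2 were higher in the *Clec7a*-/- T-cell-like class beyond counting error, *Dgkz* (108.5 and 211 CPM) and *Gm15832* (108.5 and 206.5 CPM). *Kctd5* was lower there (97.1 and 29.5 CPM), and 7 genes had intervals that held 0. *Dgkz* thus differed in T-cell-like cells in the same direction as in monocyte-like cells. T cells can make *Sh2d3c*, *Dgkz*, *Dhx40*, *Cln3* and *Kctd5* of their own, so for these the T-cell-like level can hold more than free RNA. In the *Clec7a*-/- library neutrophil-like cells were shallower than T-cell-like cells, with medians of 1051 and 1552 UMIs. A background in CPM can be higher in shallower cells, so the T-cell-like level is no upper limit for them. In WT neutrophil-like cells 8 of the 10 genes were above the T-cell-like level beyond counting error, and in *Clec7a*-/- neutrophil-like cells all 10 were. The genes were chosen for a higher level in *Clec7a*-/- neutrophils, and no share over all genes was set beside these counts. *Kctd5* stood at 87.5 CPM in WT neutrophil-like cells and 97.1 in WT T-cell-like cells. In monocyte-like cells 2 genes were above that level in WT and 0 in the *Clec7a*-/- library, and in macrophage-like and dendritic-cell-like cells 0 were in either. In CPM, most levels outside neutrophils were thus at or below this background. Per cell the order differed: the 10 genes summed to 6.12 UMIs in WT and 5.40 in *Clec7a*-/- monocyte-like cells, 5.38 and 4.58 in macrophage-like cells, 2.42 and 1.72 in dendritic-cell-like cells, and 3.81 and 3.22 in T-cell-like cells. Median depths were 7825 and 6133 UMIs in macrophage-like cells and 2058 and 1552 in T-cell-like cells.

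After each cell was thinned to 500 UMIs, a neutrophil-like cell held UMIs of 3.52 of the 10 genes on average in WT and 5.03 in the *Clec7a*-/- library, and a T-cell-like cell 0.69 and 0.78. No cell was left out, since none had under 500 UMIs. *Dgkz* was found in 28.7% (25.3 to 32.3) of WT and 57.2% (52.2 to 62.1) of *Clec7a*-/- neutrophil-like cells, with 2.99% and 12.4% in T-cell-like cells. *Kctd5* was found in 4.14% (2.77 to 5.93) and 15.1% (11.8 to 19.0), with 7.46% and 0.83% in T-cell-like cells. *Hcar2* was found in 72.8% (69.3 to 76.1) and 80.0% (75.7 to 83.8), with 11.9% and 9.92% in T-cell-like cells. *Ifitm10* was found in 4.14% and 11.9% of neutrophil-like cells and in 0 of 67 WT T-cell-like cells, which allows a share of up to 4.48% at a limit of 3 counts. Before thinning it was found in 3 of these 67 cells (interval 0.93 to 12.5%). Without thinning the mean share over the 10 genes was 62.7% in WT and 65.7% in *Clec7a*-/- neutrophil-like cells, whose median depths were 2508 and 1051 UMIs.

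Because *Clec7a*-/- neutrophil-like cells held fewer UMIs, the direction depended on the scale. Per cell, the 10 genes summed to 30.4 UMIs in WT and 22.5 in *Clec7a*-/- neutrophil-like cells, a log2 ratio of -0.44. On this scale *Hcar2* had 7.99 and 4.65 UMIs per cell and *Cd300lf* 5.83 and 3.50, both lower in the *Clec7a*-/- library, as were *Sh2d3c*, *Gm15832* and *Cln3*. *Dgkz* had 1.71 and 2.08 UMIs per cell and *Dhx40* 2.08 and 2.34, and these with *Kctd5*, *Ifitm10* and *Gm15247* were higher on every scale computed. Set against *Csf3r*, which was itself higher in the *Clec7a*-/- class (1562 and 2291 CPM), the summed log2 ratio was 0.13, and *Cd300lf*, *Hcar2* and *Sh2d3c* were lower (-0.17, -0.21 and -0.048). Scaling by TMM, which centres the bulk of genes, moved all log2 ratios of the class by -0.14, and the summed log2 ratio was then 0.54. Over all cells of the libraries the summed level was lower in the *Clec7a*-/- library, 2127 against 2939 CPM, and neutrophil-like cells made up 20.2% of its cells against 25.1% in WT. The mean depth of neutrophil-like cells was 2587 UMIs in WT and 1190 in the *Clec7a*-/- library. Cluster 7 made up 9.98% and 2.90% of the cells. The part of each in the totals was not tested.

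**Figure D3:**
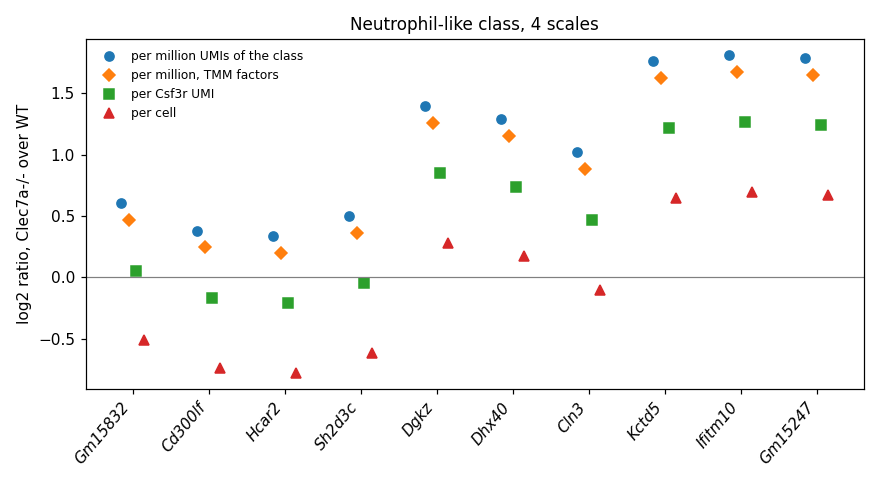
Log2 ratio of the *Clec7a*-/- over the WT library in the neutrophil-like class for each of the 10 genes on 4 scales: CPM of the class, the same with TMM factors, per UMI of *Csf3r*, and per cell. *Dgkz*, *Dhx40*, *Kctd5*, *Ifitm10* and *Gm15247* lie above 0 on all 4, and *Hcar2* runs from 0.34 in CPM to -0.78 per cell.

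The cells were then compared at like depth, without a split by cluster. Depth and cluster go together: under 1000 UMIs there were 2 WT cells of cluster 1 and 72 of cluster 3. In the *Clec7a*-/- library there were 4 and 182. The part of the clusters in the ratios of the bands was not tested. Among neutrophil-like cells with 1000 to 2000 UMIs (91 WT and 182 *Clec7a*-/- cells) the summed level was 8164 CPM in WT and 18970 in *Clec7a*-/- cells (log2 ratio 1.22, interval 1.12 to 1.32). *Dhx40* stood at 520 and 2025 CPM, and *Hcar2*, the lowest ratio of that band, at 2585 and 3618. Among cells with 2000 to 4000 UMIs (437 and 35 cells) the summed level was 12293 and 16439 (0.42, 0.34 to 0.50). *Kctd5* stood at 86.7 and 284 CPM there. In that band *Gm15832* stood at 1710 and 1892 CPM, with an interval that held 0. At 4000 UMIs and over 1 *Clec7a*-/- cell was left. In WT cells *Cd300lf* stood at 1381 CPM below 1000 UMIs and 2326 at 2000 to 4000, and in *Clec7a*-/- cells at 3029 and 2685.

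**Figure D4:**
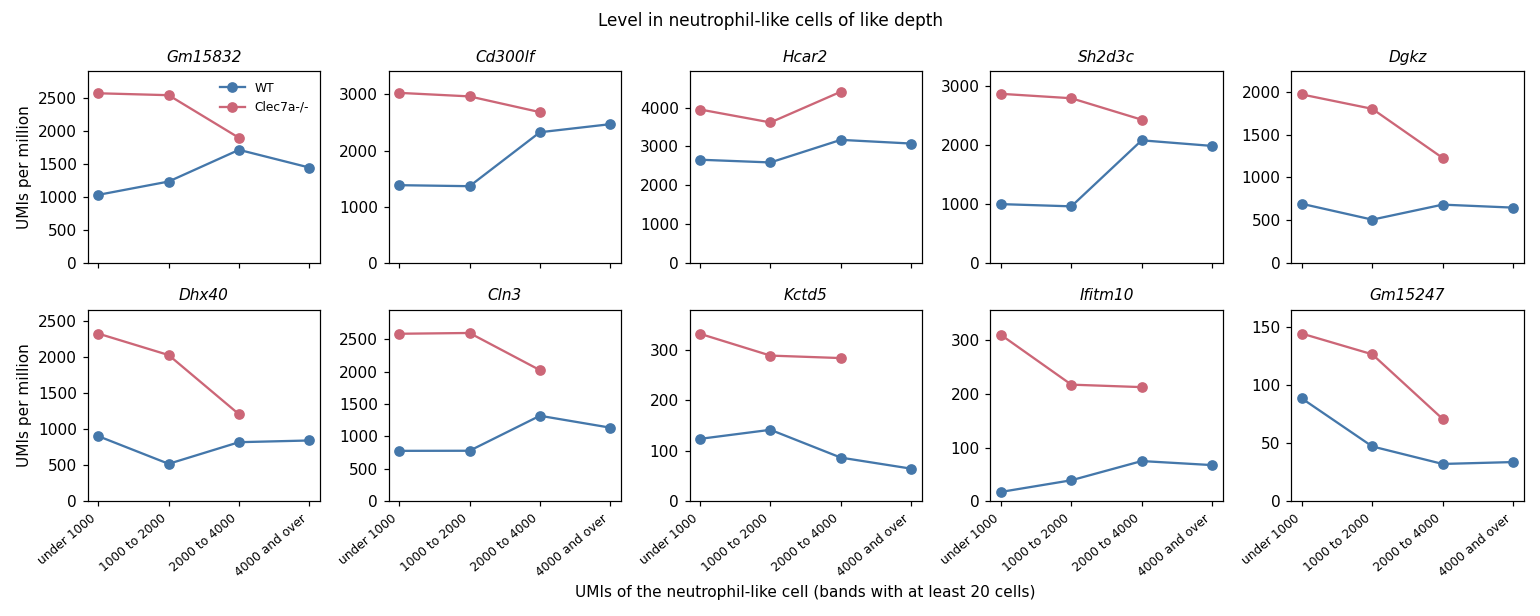
CPM in neutrophil-like cells of WT (blue) and *Clec7a*-/- (red) by depth band of the cell (x axis, UMIs per cell), 1 panel per gene, for bands with at least 20 cells. The red line is above the blue in every shared band, and as a ratio the gap is smallest at 2000 to 4000 UMIs for *Gm15832* (1710 and 1892).

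Genes beside or over the 10 were set next to them in the neutrophil-like class. Of 13 such genes with at least 20 UMIs, 9 were higher beyond counting error, 2 were lower and 2 had intervals that held 0. No share over all genes was set beside this count, so it does not set these genes apart from others in the class. *Mdk*, the gene for the growth factor midkine, starts its annotation 526 bases downstream of *Dgkz* on the same strand, and was at 160 CPM in WT and 441 in *Clec7a*-/- cells (log2 ratio 1.47, interval 1.20 to 1.73), with *Dgkz* at 1.40. *Mdk* was also the leading gene of cluster 3. *Pdpk1*, which ends 194 bases upstream of *Kctd5* on the same strand and encodes the kinase that activates AKT, was at 100.1 and 227 CPM (1.18), with *Kctd5* at 1.77. *Gm15726*, 568 bases downstream of *Gm15247* on the same strand, had 8 and 18 UMIs (2.98, interval 1.76 to 4.44), with *Gm15247* at 1.79.

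*Ctsd*, the gene for the lysosomal protease cathepsin D, lies 2157 bases upstream of *Ifitm10* on the same strand and was at 1486 and 2124 CPM (0.52), with *Ifitm10* at 1.82. *Cdk9*, a transcription elongation kinase gene on the opposite strand 7978 bases from *Sh2d3c*, was at 638 and 1275 CPM (1.00), with *Sh2d3c* at 0.50. *Apobr*, which overlaps *Cln3* on the opposite strand, was at 263 and 377 CPM (0.52). *Rnf149*, which overlaps *Gm15832* on the same strand, was lower in the *Clec7a*-/- class, at 780 and 647 CPM (-0.27, -0.45 to -0.09), as was *Slc9a3r1*, the nearest gene upstream of *Cd300lf*, at 511 and 391 CPM (-0.38, -0.62 to -0.16). *Rab37*, over *Cd300lf*, had 6 and 2 UMIs, and *Mid1*, opposite *Gm15247*, had 24 and 3. Whether reads were shared between any of these pairs was not tested.

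**Figure D5:**
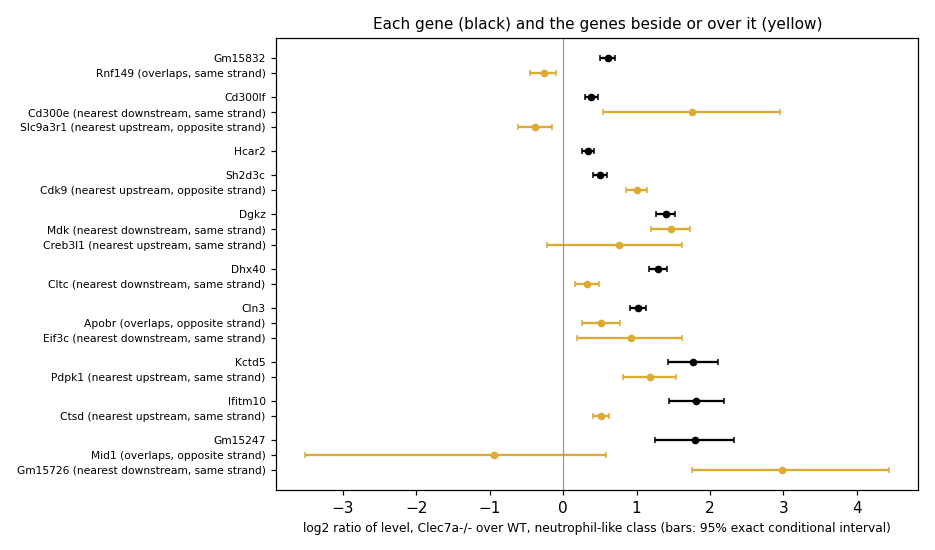
Log2 ratio of the *Clec7a*-/- over the WT library in the neutrophil-like class for each of the 10 genes (black) and for the genes that overlap it or lie nearest on either side (yellow, those with at least 20 UMIs), with 95% exact conditional intervals. *Mdk* (1.47) lies beside *Dgkz* (1.40), and *Rnf149* (-0.27) lies on the other side of 0 from *Gm15832* (0.61).

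Relatives of the 10 genes were counted in the same class. No share over all genes was set beside these counts, so they do not set the families apart from other genes in the class. Among genes with at least 20 UMIs, 2 of 5 other *Cd300* genes were higher beyond counting error (*Cd300c2*, 73.2 and 110.3 CPM, and *Cd300e*, 14 and 13 UMIs), and the others with at least 100 UMIs were *Cd300a* (221 and 256 CPM), *Cd300ld* (198 and 204) and *Cd300lb* (84.1 and 72.8). *Hcar1*, the lactate receptor gene beside *Hcar2*, had 0 UMIs in both libraries. Both other diacylglycerol kinases with at least 20 UMIs had intervals that held 0. Of 6 other DEAH-box helicases none was higher beyond counting error, *Dhx38* was lower (36.0 and 14.6 CPM) and *Dhx15* stood at 80.6 and 54.1. The precision differed between these helicases: the interval of *Dhx15* ended at 0.035 on 141 and 26 UMIs, whereas that of *Dhx34* ran from -0.69 to 2.27 on 14 and 7 UMIs.

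Of the other genes reported here that are linked to neuronal ceroid lipofuscinosis, the group of lysosomal storage diseases caused by genes such as *CLN3*, 4 were higher beyond counting error and 0 lower. They were *Ctsd*, *Grn* (639 and 866 CPM), *Tpp1* (216 and 283) and *Ppt1* (80.1 and 129), while *Dnajc5* stood at 141 and 131. None of these was 2-fold higher, and no share over all genes was set beside the count. For *Kctd5*, *Cul3* was lower (142 and 104 CPM) and *Rbx1* at 49.8 and 45.8. *Nedd9*, a CAS-family partner of *Sh2d3c*, was lower (148 and 93.6). Of 5 other *Ifitm* genes 1 was higher (*Ifitm3*, 399 and 512 CPM), with *Ifitm1* at 3001 and 2944, *Ifitm2* at 1751 and 1727 and *Ifitm6* at 139 and 121.

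Lists for neutrophil maturity gave the setting of the class. Of 14 granule genes 8 were lower in the *Clec7a*-/- class beyond counting error and 0 higher, and they summed to 11230 CPM in WT and 6375 in *Clec7a*-/- cells. Within cluster 1 their sums were 12437 and 11329 CPM, and within cluster 3 they were 3452 and 3893. The part of the cluster mix in the class sums was not tested. Of 11 genes of mature blood neutrophils 4 were higher and 7 lower, and of 14 genes of activated or aged tissue neutrophils 5 were higher and 5 lower. No share over all genes was set beside these counts, so they do not set the lists apart from other genes in the class. The summed markers of monocytes were 4988 and 6709 CPM and those of dendritic cells 57.2 and 177. Median mitochondrial shares were 1.17% and 1.63%. The part of each in the ratios of the 10 genes was not tested.

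The genes most like the summed 10 over 10 profiles (5 classes in each of 2 libraries), among 8469 genes with at least 100 UMIs, were *Sephs2* (Pearson r 0.997 of log2 of 1 plus the level), *Lfng* (0.994), *Csf3r* (0.994), *Nadk* (0.991) and *Ccl4* (0.990). The profiles share libraries and free RNA, and r describes the pattern only. *Sephs2* stood at 360 CPM in WT and 558 in *Clec7a*-/- neutrophil-like cells and *Lfng* at 552 and 903. Of the 10 genes themselves *Sh2d3c* followed the sum most closely (0.993) and *Kctd5* least (0.773), the latter with 97.1 CPM in WT and 29.5 in *Clec7a*-/- T-cell-like cells beside 87.5 in WT neutrophil-like cells. Each of the 10 is itself part of the sum, so this order also holds their abundance. In WT neutrophil-like cells *Sh2d3c* made up 16.5% of the UMIs of the 10 and *Kctd5* 0.74%.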

How the data were processed

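Per the labels and the methods, the SeekOne MM kit was used for 3′ libraries, whereas a label names another platform. The deposited values are UMI counts, whole numbers that the authors had not normalized. The submitters' processing notes name Cell Ranger 2.1.1 and mm10. The study's filter (200 to 4000 detected genes, 5% mitochondrial UMIs or less) was applied. Clusters were drawn in Seurat 5.3.0 (R 4.3.3) from 2000 variable features, less the 10 genes, their relatives and sex-linked, *Aldh*, *Adh* and *Rdh* genes, on 20 components at the smallest resolution with at least 15 clusters. A cluster was named when at least 3 markers of a type were among its 50 leading genes (in 25% or more of its cells), these were at least 3 times as many as those of any other type and, a condition added after the clusters were seen, no other type had as many among its 10 leading genes. Shallow clusters without an own marker among those 10 stayed unnamed. Levels and ratios were computed from summed counts with a pseudocount of 0.5 UMI (Python 3.11.15, numpy 2.4.6, scipy 1.17.1), and the code was tested on simulated data. TMM factors came from edgeR 4.0.16. Scrublet (scanpy 1.11.5) marked 3 WT and 7 *Clec7a*-/- cells, under 0.5%, and none were removed. No count test fits 1 library per group. The 10 genes, the lists and the tests were chosen with earlier results of these data known. Genes named are the 10, listed relatives, overlapping and nearest genes, markers and the 5 most alike. A gene among the listed relatives is not reported here.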

Additional observations from a re-analysis of the deposited data

Results flagged for a closer look

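Some of the 10 genes were higher in *Clec7a*-/- neutrophil-like cells and lower in another class, both beyond counting error, and these differences between classes were not tested, since each class has 1 library per genotype. In dendritic-cell-like cells the log2 ratios were -1.05 for *Cd300lf*, -1.16 for *Hcar2*, -0.90 for *Sh2d3c*, -0.43 for *Cln3* and -0.45 for the sum of the 10, on levels under those of T-cell-like cells. In monocyte-like cells *Hcar2* was at -0.26. In macrophage-like cells *Sh2d3c* was at -0.33, also below the T-cell-like level. In T-cell-like cells *Kctd5* was at -1.66, on 17 WT and 7 *Clec7a*-/- UMIs.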

How the results depend on the processing

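The 10 genes were recomputed under 20 alternatives each, and 192 of the 200 ratios stayed above 0. The genes were chosen for ratios above 0 in these cells, so this count is a description. Of the 200, 130 stayed inside the interval of the main ratio, 62 moved outside it and 8 changed sign. The alternatives are not independent: clustering on all variable features and a higher resolution both kept the same 676 WT and 404 *Clec7a*-/- cells. With UMIs per cell in place of CPM the log2 ratios were -0.51 for *Gm15832*, -0.74 for *Cd300lf*, -0.78 for *Hcar2*, -0.62 for *Sh2d3c*, -0.10 for *Cln3* and -0.44 for the sum, and 0 genes were 2-fold higher, since *Clec7a*-/- neutrophil-like cells held fewer UMIs. Per *Csf3r* UMI, a scale added after the data were seen, *Cd300lf* was at -0.17, *Hcar2* at -0.21, *Sh2d3c* at -0.048 and the sum at 0.13, with 3 genes 2-fold higher. The cause of the moves below was not tested. The sum in neutrophil-like cells was 0.64 with higher limits on detected genes, 0.83 with neutrophils defined cell by cell, 0.78 as a mean over cells, 0.54 with TMM and 0.64 without the 50 most abundant genes. In settings added after the data were seen it was 0.78 with cluster 7, 0.57 in cluster 1 only, 1.13 in cluster 3 only and 1.22 at 1000 to 2000 UMIs. In monocyte-like cells it was 0.14 with those limits, 0.28 with all features, 0.16 with 30 components, -0.027 after reciprocal PCA, 0.19 as a mean over cells and -0.18 per cell. In macrophage-like cells it was 0.14 with all features, 0.26 after reciprocal PCA, -0.23 per cell and 0.26 with the 5% of highest doublet scores removed, the last added later. In dendritic-cell-like cells it was -0.60 with 10% mitochondrial UMIs, -0.59 after reciprocal PCA, -0.16 as a mean over cells and, added later, -0.63 without those 5% of cells. The mean share of cells with a UMI differed by 15.1 points, and by 2.96 points without thinning. With a 1.5-fold limit 7 genes passed, against 16.4% of all genes. No paired analysis was possible because each genotype has 1 library. The 8 to 121 UMIs per library behind *Kctd5*, *Ifitm10* and *Gm15247* in clusters 1 and 3 give those ratios wide intervals.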
